A study of Mus musculus with 12 samples.

Results

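The dependence of the PDGF-B response on Pdgfrb genotype was measured in cultured mouse hepatic stellate cells on 12 of the 12 arrays of the series. Within each of 6 preparations, the log2 intensity without the ligand was subtracted from that with it, and the 3 changes of knockout (KO) cells were set against the 3 changes of wild-type (WT) cells. A positive difference means a more positive change with PDGF-B in KO cells, and a negative one a more negative change. A preparation here is the pair of arrays that share a code in their titles, namely P524, P338 and P522 for KO cells and P11, P393 and P530 for WT cells. Lists of 3 values per genotype follow that order throughout.

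The arrays were single-colour Illumina BeadChips, and they form 4 groups of 3. KO cells came from β-PDGFR fl/fl mice that carried GFAP Cre, and received PDGF-B (10 ng/ml) or albumin, its vehicle. WT cells came from Cre-negative β-PDGFR fl/fl mice, so they too carried the floxed alleles, and received the same dose or the same vehicle. The floxed strain is labelled 129S4/SvJae, and the Cre line was FVB with the glial fibrillary acidic protein promoter in front of Cre, so deletion depends on the activity of that promoter. Cells of every group were freed with pronase and collagenase, spun through Percoll, grown in DMEM with 10% fetal bovine serum, and then kept in serum-free medium with ligand or vehicle. Neither the age of the mice nor the length of the treatment is given in the sources used here. Whether 1 code means 1 animal, pooled animals or 1 culture is left unsaid by the labels, and the p-values reflect only the spread between these samples, some of which may be technical.

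Hepatic stellate cells are the pericytes of the liver sinusoid, which store vitamin A at rest and turn into contractile, matrix-producing myofibroblasts after injury. PDGF-B, a dimeric growth factor, binds the alpha and beta PDGF receptors, whose kinase domains then activate Ras and ERK as well as PI3K and Akt, and the beta receptor is the main mitogenic receptor of activated stellate cells. ERK signalling induces immediate early transcription factors and, after them, its own feedback inhibitors of the Sprouty, Spred and dual-specificity phosphatase (Dusp) families.

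Median raw intensity ran from 86.2 to 96.2 between arrays, and of 45281 probes 45.4% to 53.1% passed the background level on an array. After background correction, quantile normalization and a filter on dim probes, 13303 genes were tested. Among cell type markers on the array, 11 of 14 of stellate cells, 19 of 22 of macrophages and 10 of 12 of mesothelial cells were above background on all arrays, against 4 of 22 of hepatocytes and 1 of 12 of lymphocytes. Endothelial markers had 7 of 15 and cholangiocyte markers 3 of 8 above background on all arrays. Alb, Apoa1 and Apoc3, which define hepatocytes, were above background on 0 arrays, while Lrat, which esterifies retinol in quiescent stellate cells, was above background on few. In such mixed cultures, fewer cells of a type and less RNA per cell cannot be told apart. WT preparation P11 stood apart. Its changes correlated across genes at r = -0.39 with those of P393 and -0.19 with those of P530, where P393 and P530 correlated at 0.30 and the 3 pairs of KO preparations at 0.16 to 0.24, and genes are not independent replicates. The raw median intensity of P11 was 3.40 higher with ligand than without it, against differences of -3.74 to -0.30 in the remaining preparations, and its part in the results below was not tested beyond leaving it out.

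Across the 13303 genes, 0 differed between KO and WT cells in their change with PDGF-B at an adjusted p under 0.05 (limma with Benjamini-Hochberg adjustment, smallest adjusted p = 0.999, percent called 0). At an unadjusted p under 0.05, 270 genes (2.03%) had a higher and 330 (2.48%) a lower change in KO cells, together fewer than the 665 that this threshold passes when no gene differs. Scaling the arrays by their medians in place of quantiles gave 47 higher and 285 lower. The 3 KO changes lay above all 3 WT changes for 620 genes (4.66%) and below them for 615 (4.62%), and the difference was above 0 for 50.8% of genes.

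The size of the differences was bounded more tightly than their sign. Their median was 0.0020 on the log2 scale, the middle 50% of genes lay between -0.07 and 0.07, and the full range was -0.76 for Bst2 to 0.98 for Aldh1a3. The 95% confidence interval lay wholly within 1 log2 unit of 0 for 13279 genes (99.8%), and within 0.5 for 12357 (92.9%). For 22 genes the estimate exceeded 0.5 in size, and for 0 genes it exceeded 1. These bounds hold for a background offset of 50, which compresses the differences of dim genes. Over the alternative settings, the estimate reached 1.48 for Aldh1a3 and 1.002 for Cd74. All 6 changes were above 0 for 233 genes and below 0 for 239. For 182 genes all 3 KO changes were above 0 and all 3 WT changes below it, and for 199 genes the reverse held. Leaving out P11 gave 719 higher and 659 lower genes at an unadjusted p under 0.05, with 0 past the adjusted threshold and a smallest adjusted p of 0.146. Among the 132 measured genes chosen for naming, leaving out 1 preparation shrank the difference by over 1.5 times for 77 and turned its sign for 8 of these.

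**Figure D1:**
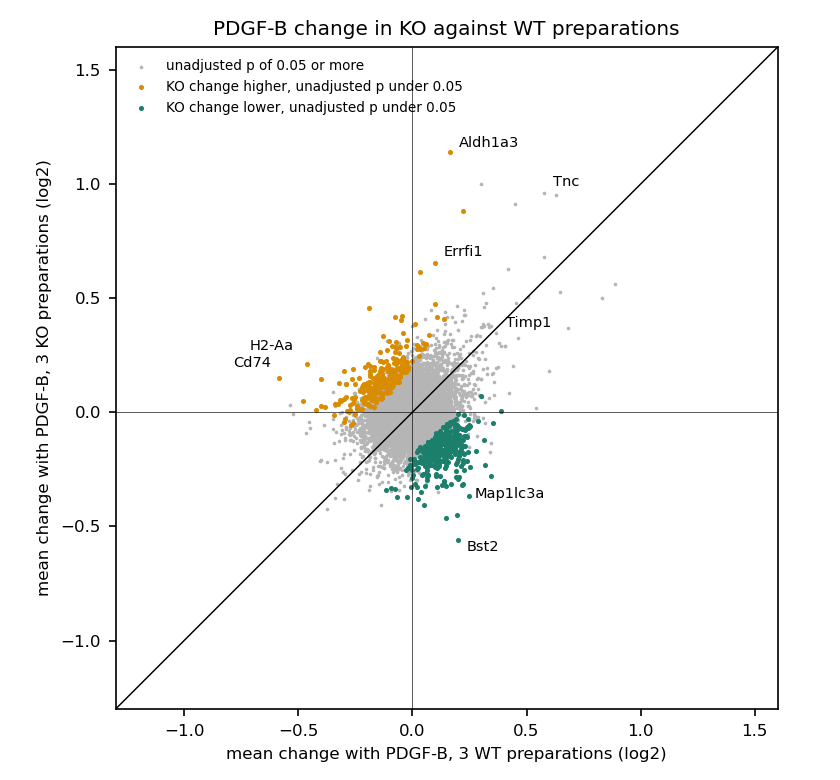
Mean change with PDGF-B of each of the 13303 genes in the 3 KO preparations (vertical axis, log2) against that in the 3 WT preparations (horizontal axis, log2). The diagonal marks equal changes, and colours mark an unadjusted p under 0.05 for the difference, with 270 genes above and 330 below. Aldh1a3 and Bst2 lie at the 2 ends of the range of differences, 0.98 and -0.76.

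The receptors and ligands of the pathway are described first. Pdgfrb, the targeted receptor gene, had log2 intensities of 6.98, 6.52 and 7.74 in KO cells with PDGF-B, against 7.17, 6.42 and 7.61 in KO cells with vehicle. In WT cells it had 6.82, 6.92 and 7.80 with PDGF-B, against 6.68, 6.78 and 7.60 with vehicle. All 3 WT preparations and 2 of the 3 KO preparations were slightly higher with ligand, and the levels of the genotypes overlapped. The difference in change was -0.14 ± 0.10 (SE), with changes of 0.02 ± 0.18 in KO and 0.16 ± 0.03 in WT cells (SD, n = 3 each; p = 0.2 by an exact permutation test, two-sided, whose smallest possible p at this size is 0.1). The position of the probe relative to the floxed exons was not known, and its level is therefore no check of the genotype.

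Pdgfra, the alpha receptor through which PDGF-B can also signal, changed by -0.01, 0.20 and 0.37 log2 units in KO cells, against -0.03, -0.27 and 0.33 in WT cells. The ranges overlapped, and the difference was 0.18 ± 0.15, and 0.04 without P393. Of 6 measured receptors and ligands, 2 had a positive difference, with a median of -0.07 beside 0.0020 over all genes. Pdgfrl, a receptor-like secreted protein, was the 1 member whose changes did not overlap (16.7%, beside 4.62% of all genes), with -0.04, -0.11 and -0.12 in KO cells, against 0.24, 0.09 and -0.00 in WT cells and a difference of -0.20 ± 0.09. Pdgfb and Pdgfa, the ligand chains made by the cells themselves, differed by -0.12 and 0.11.

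Adaptors and kinases next to the receptor had a share of positive differences near that of all genes. Of 21 measured genes, 11 had a positive difference (52.4%, beside 50.8% of all genes), with a median of 0.05 that was 0.0014 under median scaling. Pik3ca, the catalytic p110 alpha subunit of PI3K, changed by 0.09, -0.03 and 0.09 in KO cells, against -0.26, -0.32 and -0.36 in WT cells. Every WT value was below every KO value, and the difference was 0.36 ± 0.09 (1.29-fold). Crk, an SH2 and SH3 adaptor, had non-overlapping changes with a difference of 0.18 ± 0.10, and of 0.09 without P530. Pik3r1, the regulatory subunit that pairs with p110, differed by -0.17 ± 0.11, with overlapping changes.

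Immediate early genes gave no shared direction. Of 23 measured, 15 had a positive difference (65.2%) and the median was 0.07, and it was -0.03 without P524. Egr1, a zinc finger factor induced by ERK, had 10.14, 9.51 and 10.34 log2 units in KO cells with PDGF-B, against 9.42, 9.20 and 10.14 with vehicle. WT cells had 9.83, 9.86 and 10.32 with PDGF-B, against 10.15, 9.68 and 10.02 with vehicle. The level was higher with ligand in 5 of the 6 preparations and lower in P11, and the changes overlapped. The difference was 0.36 ± 0.17 (95% interval -0.03 to 0.74), and 0.17 without P11.

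Fos differed by -0.00 ± 0.18 and Myc by -0.09 ± 0.10, both with overlapping changes. Myc was dim, at a mean log2 level of 6.10, where the background offset compresses differences, so its small difference says little. Atf3, a stress-induced repressor, had changes of -0.20, -0.15 and -0.29 in KO cells, against 0.10, 0.05 and -0.12 in WT cells, and a difference of -0.22 ± 0.09 without overlap. Ier2 and Nr4a2, chosen after their values were seen, also lay below WT without overlap, by -0.18 and -0.17, and Fosb above it by 0.15. These 3 genes were close to background, with mean log2 levels of 5.88, 6.02 and 5.95. Ier2 was above background on 0 of 3 WT arrays with vehicle. With Atf3, the members below WT without overlap made 13.0% of the list, beside 4.62% of all genes. Those above WT made 4.35%, beside 4.66%.

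ERK feedback regulators and their ETV transcription factor partners leaned towards KO cells. Of 20 measured of 22 listed, 18 had a positive difference (90.0%, beside 50.8% of all genes), and the median was 0.13. The list was chosen with earlier results of these data known, so this is a description of 6 preparations and no test. The changes of Dusp6, Spred3 and Spred2 did not overlap and were higher in KO cells, 3 members (15%) beside 4.66% of all genes. Of these, Spred3 was above background on 0 of 3 WT arrays with PDGF-B and Spred2 on 0 of 3 KO arrays with vehicle, so 1 member, Dusp6, was measured on both sides. The median change of the list was 0.16, 0.06 and 0.11 in KO preparations, against -0.20, 0.09 and -0.03 in WT preparations. P11 was the lowest of the 6, and P393 lay within the KO range. Without P11 the median was 0.09 with 16 members positive, and over the leave-one-out fits it was 0.09 to 0.23.

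Dusp6, the phosphatase that removes phosphate from ERK in the cytoplasm, had 10.38, 10.46 and 10.35 log2 units in KO cells with PDGF-B, against 10.14, 10.30 and 10.21 with vehicle. The WT levels were 10.58, 10.47 and 10.33 with PDGF-B, against 10.81, 10.43 and 10.54 with vehicle. Every KO preparation was higher with ligand, while P11 and P530 were lower and P393 differed by 0.04. The difference was 0.32 ± 0.10 (95% interval 0.10 to 0.54), 0.27 without P11, and the 2 further probes of the gene gave 0.49 and 0.10. Spred2 and Spred3, which inhibit Ras and Raf signalling, differed by 0.09 and 0.10, which are not measured differences for the same reason.

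Errfi1, a feedback inhibitor of the EGF receptor, had the largest difference of the list. Its changes were 0.54, 0.27 and 1.16 in KO cells, against -0.20, 0.33 and 0.16 in WT cells, so that P393 overlapped the KO range. The difference was 0.56 ± 0.21 (1.47-fold), 0.41 without P11 and 0.30 without P522. Dusp4, a nuclear ERK phosphatase, changed by 0.50, 0.34 and 0.51 in KO cells, against -0.60, 0.63 and 0.21 in WT cells. Its difference of 0.37 was 0.03 without P11. Spry4, a Sprouty inhibitor, differed by -0.01 ± 0.10, and Ccnd1, the cyclin that carries mitogen signals to CDK4 and CDK6, by -0.05 ± 0.22 (-0.34 without P11). Spry4 was dim, at a mean log2 level of 6.18, so its small difference says little.

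**Figure D2:**
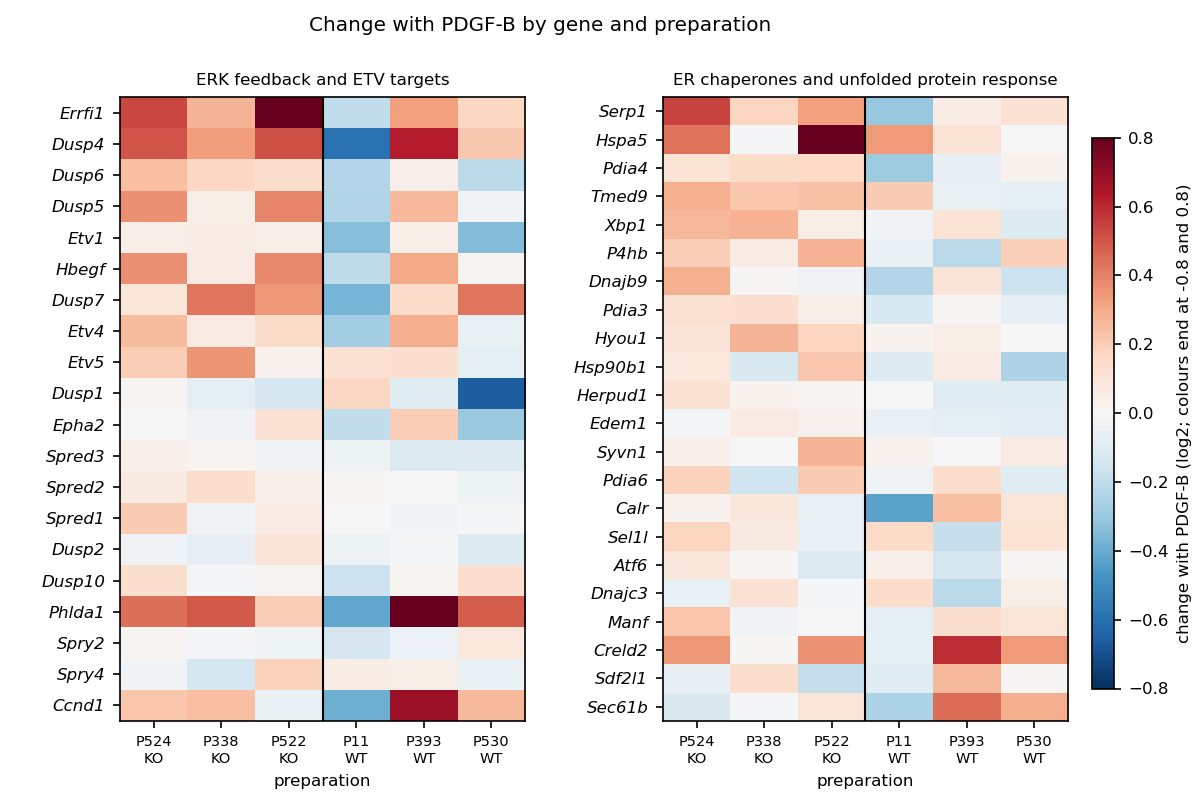
Change with PDGF-B (log2, colour) of the 20 measured ERK feedback and ETV genes and the 22 measured endoplasmic reticulum (ER) chaperone and unfolded protein response genes in each preparation. KO preparations stand left of the black line and WT preparations right of it, and genes run from the most positive to the most negative difference. Dusp4 and Phlda1 show the blue of P11 between the reds of the remaining preparations.

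Genes that PI3K and Akt hold down through FoxO factors also had a share of positive differences near that of all genes, with 11 of 20 positive (55.0%) and a median of 0.05. Insr, the insulin receptor, differed by 0.19 ± 0.14 and Pik3ip1, an inhibitor of PI3K, by -0.18 ± 0.11. The list had 0 members with non-overlapping changes, beside 4.66% of all genes above WT and 4.62% below.

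Growth programmes did not lean towards KO cells. G1/S and DNA replication genes had a positive difference in 10 of 32 (31.2%) and a median of -0.07, which was 0.01 without P530. Gins2, a subunit of the replicative helicase, changed by -0.10, -0.05 and -0.40 in KO cells, against 0.22, 0.02 and 0.13 in WT cells, a difference of -0.31 ± 0.11, and of -0.20 without P522. Pcna, the sliding clamp of DNA polymerase, was the second member without overlap, at -0.17 ± 0.09 (6.25% of the list, beside 4.62% of all genes). Mitosis genes had 11 of 24 positive and a median of -0.02. Cenpa, the centromeric histone variant, differed by -0.33 ± 0.13 (-0.19 without P530) and Tpx2, a spindle assembly factor, by -0.19 ± 0.09. Both were without overlap (8.33% of the list, beside 4.62% of all genes).

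Sterol and fatty acid synthesis genes showed the weight of single preparations. Of 18 cholesterol genes 6 were positive, and the median of -0.08 ranged from -0.21 without P11 to 0.04 without P393. The median change of the list was 0.28, 0.19 and 0.05 in KO preparations, against -0.07, 0.43 and 0.23 in WT preparations. Mvk, mevalonate kinase, changed by -0.06, 0.05 and -0.08 in KO cells, against 0.17, 0.25 and 0.32 in WT cells (difference -0.28 ± 0.09), whereas Idi1, the isopentenyl diphosphate isomerase of the same pathway, changed by 0.56, 0.40 and 0.27 in KO cells, against -0.05, 0.23 and 0.23 in WT cells (difference 0.27 ± 0.11, and 0.18 without P11). Neither pair of ranges overlapped. Of 14 fatty acid synthesis genes 3 were positive, with a median of -0.07 that kept its sign in every setting tried.

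Genes of ribosome assembly lay on both sides. Of 26 ribosome biogenesis genes 13 were positive, and the median of 0.0068 was -0.01 under median scaling. Bop1, a pre-rRNA processing factor, changed by 0.64, 0.28 and 0.50 in KO cells, against 0.10, 0.05 and 0.15 in WT cells, a difference of 0.37 ± 0.11 without overlap, although its second probe gave -0.05. Nop10, a small protein of the box H/ACA particles that guide pseudouridylation, changed by -0.41, -0.29 and -0.27 in KO cells, against -0.13, 0.40 and 0.17 in WT cells, a difference of -0.47 ± 0.13 without overlap. Twistnb, which codes for an RNA polymerase I subunit, differed by -0.25 ± 0.08, also without overlap. Its level was 5.91 to 6.45 on KO arrays, near background, against 7.23 to 7.55 on WT arrays. It did not pass a filter for probes above background on all arrays. Over the alternative settings that kept it, the difference ran from -0.38 to -0.05. Aminoacyl-tRNA synthetases, which charge tRNAs, had 12 of 19 positive and a median of 0.02, with 2 above WT without overlap (10.5%, beside 4.66% of all genes) and 0 below. Mars1, the methionyl-tRNA synthetase, changed by 0.34, 0.25 and 0.28 in KO cells, against -0.02, 0.03 and -0.09 in WT cells, a difference of 0.32 ± 0.09.

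Genes of protein folding in the ER formed the second list that leaned towards KO cells. Of 22 measured, 19 had a positive difference (86.4%) and the median was 0.11, with 0.09 to 0.13 over the leave-one-out fits and 0.06 under median scaling. The changes of 7 members did not overlap, all higher in KO cells (31.8%, beside 4.66% of all genes). The median change of the list was 0.12, 0.07 and 0.07 in KO preparations, against -0.05, 0.06 and 0.01 in WT preparations, and the KO and WT values lay close together.

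Serp1, which stabilises membrane proteins during ER stress, had 10.20, 10.12 and 9.99 log2 units in KO cells with PDGF-B, against 9.66, 9.95 and 9.66 with vehicle. For WT cells the levels were 9.74, 9.93 and 10.03 with PDGF-B, against 10.04, 9.87 and 9.91 with vehicle. Each KO preparation was higher with ligand, P393 and P530 were higher by less, and P11 was lower. The difference was 0.39 ± 0.13 (95% interval 0.09 to 0.68), and 0.26 without P11. Pdia4, a protein disulfide isomerase, changed by 0.11, 0.15 and 0.16 in KO cells, against -0.28, -0.07 and 0.03 in WT cells, a difference of 0.25 ± 0.10, and of 0.16 without P11. Tmed9, a cargo receptor between ER and Golgi, differed by 0.22 ± 0.10 with -0.02 at its second probe. Hspa5, the chaperone BiP, changed by 0.43, -0.01 and 0.83 in KO cells, against 0.34, 0.11 and 0.00 in WT cells, so its changes overlapped widely.

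Because these genes shared a direction, their promoters were read for the ER stress element, the site through which ATF6 with NF-Y induces ER chaperones. Promoters run from 250 bases before to 50 after the annotated start in RefSeq (GRCm38.p6), and the motif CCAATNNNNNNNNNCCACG was searched on both strands. It was found for 37 of 27025 genes with a promoter (0.137%), for 14 of 10709 such genes among those tested (0.131%), and in 7 of the 19 list members with a promoter (36.8%). Of the 7 members whose changes did not overlap, 6 had a promoter and 0 held an exact match to this form. Other arrangements of the CCAAT and CCACG parts, such as attgggccacg in Herpud1, were not searched. Near matches that differ from the motif in a base were not counted. Such stretches are agtggcagcccgtgattgg in Pdia4, ccaatcggcggctgccaca in Pdia3 and ccaatggatggcagccaca in Herpud1. Hspa5 (chr2:34771840-34772139, plus strand) held it once and Hsp90b1 (chr10:86705395-86705694, minus strand), the ER form of Hsp90, 2 times, whereas Pdia4 (chr6:47813463-47813762, minus strand) held 0 matches. The 3 promoters are shown because they set members with the element beside a member with non-overlapping changes, each written 5′ to 3′ on the strand of the gene with the motif in capitals.
Hspa5: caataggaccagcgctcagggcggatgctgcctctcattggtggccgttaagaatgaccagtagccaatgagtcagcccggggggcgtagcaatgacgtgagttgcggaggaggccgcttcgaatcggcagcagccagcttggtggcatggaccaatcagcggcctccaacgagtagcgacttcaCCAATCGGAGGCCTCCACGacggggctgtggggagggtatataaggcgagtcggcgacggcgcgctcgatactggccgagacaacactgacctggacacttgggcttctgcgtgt
Hsp90b1: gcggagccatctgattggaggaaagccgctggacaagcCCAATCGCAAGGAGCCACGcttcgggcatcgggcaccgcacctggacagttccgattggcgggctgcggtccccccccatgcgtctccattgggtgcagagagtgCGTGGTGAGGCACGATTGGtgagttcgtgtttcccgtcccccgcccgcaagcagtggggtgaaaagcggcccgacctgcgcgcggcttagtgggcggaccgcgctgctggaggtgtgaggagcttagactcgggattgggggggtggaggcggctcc
Pdia4: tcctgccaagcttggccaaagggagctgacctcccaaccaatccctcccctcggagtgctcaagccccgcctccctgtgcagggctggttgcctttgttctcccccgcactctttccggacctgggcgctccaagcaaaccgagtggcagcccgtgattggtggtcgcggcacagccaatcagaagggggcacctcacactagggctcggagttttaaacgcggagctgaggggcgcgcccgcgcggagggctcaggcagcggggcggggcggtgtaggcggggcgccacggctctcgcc
In Hsp90b1 the second match reads on the opposite strand. The difference in change was 0.27 ± 0.18 for Hspa5 and 0.15 ± 0.12 for Hsp90b1, both with overlapping changes. A match is a description of the letters, and its absence says only that they are not in this window.

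Hypoxia and glycolysis genes had 17 of 21 positive (81.0%) and a median difference of 0.11, and 0.09 under median scaling. Their median change was above 0 in all 3 KO preparations (0.06, 0.04 and 0.11) and below 0 in all 3 WT preparations (-0.10, -0.06 and -0.01). Slc2a1, the glucose transporter GLUT1, had 9.91, 9.62 and 10.46 log2 units in KO cells with PDGF-B, against 9.66, 9.57 and 9.97 with vehicle. In WT cells the levels were 9.97, 9.73 and 10.21 with PDGF-B, against 10.07, 9.89 and 10.39 with vehicle. All 3 KO preparations were higher with ligand and all 3 WT preparations lower, a difference of 0.41 ± 0.12 (1.33-fold). Tpi1, a glycolytic isomerase, and Hif1a, the oxygen-regulated factor, were the further members without overlap, at 0.15 and 0.14, which makes 3 of 21 (14.3%, beside 4.66% of all genes). Vegfa, the endothelial growth factor, differed by 0.36 ± 0.16 with overlap, and by 0.23 without P522.

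Antioxidant genes under NRF2 had 12 of 16 positive (75%) and a median of 0.12, which ranged from 0.07 without P522 to 0.15 without P393. Tkt, transketolase of the pentose phosphate pathway, changed by 0.17, 0.34 and 0.37 in KO cells, against -0.25, -0.17 and 0.15 in WT cells, a difference of 0.38 ± 0.12 without overlap, with 0.05 and 0.07 at its 2 further probes. Hmox1, haem oxygenase, differed by 0.40 ± 0.18, and by 0.17 without P11.

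Matrix and contractile genes, the output of activated stellate cells, showed wide spread within genotypes. Col1a1, the main fibrillar collagen chain, changed by 0.01, 0.27 and 0.64 in KO cells, against 0.06, 0.07 and 1.02 in WT cells, a difference of -0.08 ± 0.24 (95% interval -0.61 to 0.46). Col3a1 changed by -0.50, -0.16 and 0.13 in KO cells, against 0.39, 0.13 and 0.22 in WT cells, and the difference of -0.42 ± 0.15 came with P522 inside the WT range and was -0.26 without P524. Of 11 fibrillar and microfibrillar collagens 4 were positive, and their median of -0.06 ranged from -0.22 to 0.08 over the leave-one-out fits. Acta2, smooth muscle actin, differed by 0.09 ± 0.09, and contractile genes had 12 of 24 positive. Tpm2, a tropomyosin, changed by -0.10, -0.28 and -0.14 in KO cells, against 0.17, 0.09 and 0.16 in WT cells, a difference of -0.32 ± 0.09 that its 2 further probes, at 0.04 and -0.07, did not share in size.

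Tnc, the matricellular protein tenascin C, changed by 0.64, 1.09 and 1.15 in KO cells, against -0.06, 0.57 and 1.22 in WT cells. The difference of 0.38 ± 0.26 was 0.07 without P11, and its 3 further probes gave -0.08, 0.30 and -0.03. Timp1, the metalloproteinase inhibitor, changed by 0.20, 0.17 and 0.67 in KO cells, against 0.38, 0.34 and 0.38 in WT cells, a difference of -0.02 ± 0.13 with a 95% interval of -0.31 to 0.27. Timp3 differed by 0.37 ± 0.11 without overlap (0.25, 0.09 and 0.26 in KO cells, against 0.02, -0.17 and -0.35 in WT cells), while its 2 further probes gave -0.02 and 0.20. Mmp10, stromelysin 2, differed by 0.58 ± 0.23, and by 0.28 without P11. Metalloproteinases and TIMPs had 10 of 18 positive and a median of 0.05, which was 0.00038 without P530 and 0.02 without P522.

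The genes chosen for the smallest p, 10 per direction, and for the largest difference, 5 per direction, were of mixed function. Each had an adjusted p of 0.999. Aldh1a3, a retinaldehyde dehydrogenase that makes retinoic acid, had 7.35, 6.42 and 7.74 log2 units in KO cells with PDGF-B, against 6.17, 5.88 and 6.04 with vehicle. In WT cells it had 5.80, 6.0 and 6.91 with PDGF-B, against 5.73, 5.92 and 6.57 with vehicle. All 6 preparations were higher with ligand, the KO preparations by 1.18, 0.54 and 1.71 and the WT preparations by 0.07, 0.08 and 0.34. The difference was 0.98 ± 0.23 (1.97-fold, 95% interval 0.46 to 1.49), with 0.39 at a second probe. The gene was dim, above background on 3 of 3 KO arrays with PDGF-B and 2 of 3 with vehicle, against 2 of 3 and 1 of 3 WT arrays.

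Igfbp4, which binds insulin-like growth factors, had 10.11, 10.65 and 10.54 log2 units in KO cells with PDGF-B, against 9.97, 10.51 and 10.39 with vehicle. WT cells had 10.79, 10.62 and 10.09 with PDGF-B, against 11.09, 10.94 and 10.26 with vehicle. Each KO preparation was higher with ligand by nearly the same step and each WT preparation lower, a difference of 0.41 ± 0.09 with 0.32 at a second probe. Cpe, carboxypeptidase E of prohormone processing, differed by 0.45 ± 0.10, Itm2a by 0.45 ± 0.11 and Sema3f, a secreted semaphorin, by 0.42 ± 0.10. Smu1, a splicing factor, differed by 0.36 ± 0.09, Ivl, involucrin of cornified envelopes, by 0.64 ± 0.18, and Cul2, a ubiquitin ligase scaffold, by 0.41 ± 0.09, though 2 of 3 further Cul2 probes had the opposite sign.

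On the lower side stood Bst2, tetherin, which holds budding virions at the cell surface. It had 7.55, 8.84 and 8.44 log2 units in KO cells with PDGF-B, against 7.99, 9.07 and 9.45 with vehicle. The WT levels were 8.71, 8.03 and 8.18 with PDGF-B, against 8.36, 7.80 and 8.16 with vehicle. Every KO preparation was lower with ligand and every WT preparation higher, P530 by 0.02, and the difference was -0.76 ± 0.18 (95% interval -1.15 to -0.37), -0.53 without P522. Interferon response genes as a list, of which Bst2 is a member, had 14 of 25 positive and a median of 0.02.

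Map1lc3a, an LC3 protein of the autophagosome membrane, had 7.79, 7.73 and 7.67 log2 units in KO cells with PDGF-B, against 8.17, 7.84 and 8.13 with vehicle. For WT cells the levels were 7.80, 7.79 and 7.91 with PDGF-B, against 7.57, 7.62 and 7.66 with vehicle. All 3 KO preparations were lower with ligand and all 3 WT preparations higher. The difference was -0.54 ± 0.11 (1.45-fold lower), and a second probe gave -0.04. Mrpl34, a mitochondrial ribosomal protein, differed by -0.49 ± 0.12, Pcbd2, a pterin dehydratase, by -0.48 ± 0.10 with -0.33 at its second probe, and Scand1 by -0.47 ± 0.11. Bdh2, a short-chain dehydrogenase, differed by -0.41 ± 0.09, Sugt1, a co-chaperone of HSP90, by -0.40 ± 0.09, and Zmat5, a protein of the minor spliceosome, by -0.37 ± 0.09.

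**Figure D3:**
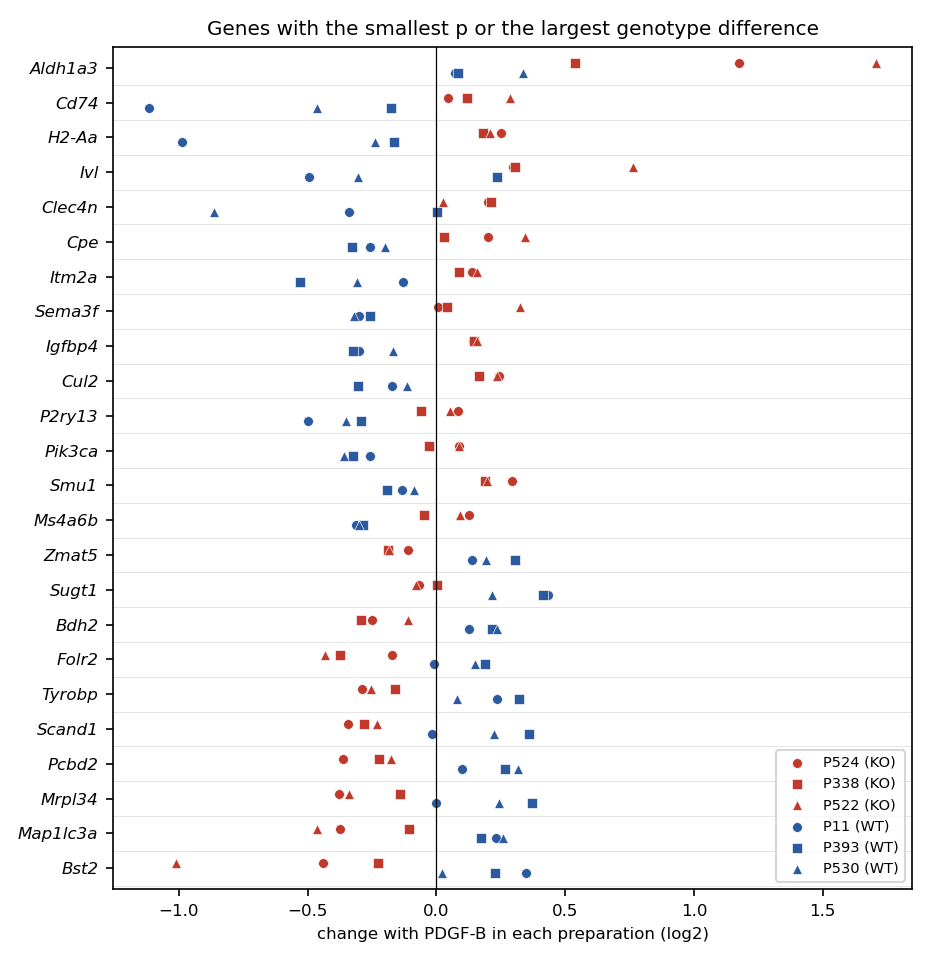
Change with PDGF-B (horizontal axis, log2) in each of the 3 KO (red) and 3 WT (blue) preparations for the genes with the smallest p or the largest difference, ordered by difference. The genes were picked for ranges that do not overlap, so the separation of colours is fixed by that choice. Aldh1a3 is displaced to the right in both genotypes, and Bst2 spans the widest range among the lower genes.

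**Figure D4:**
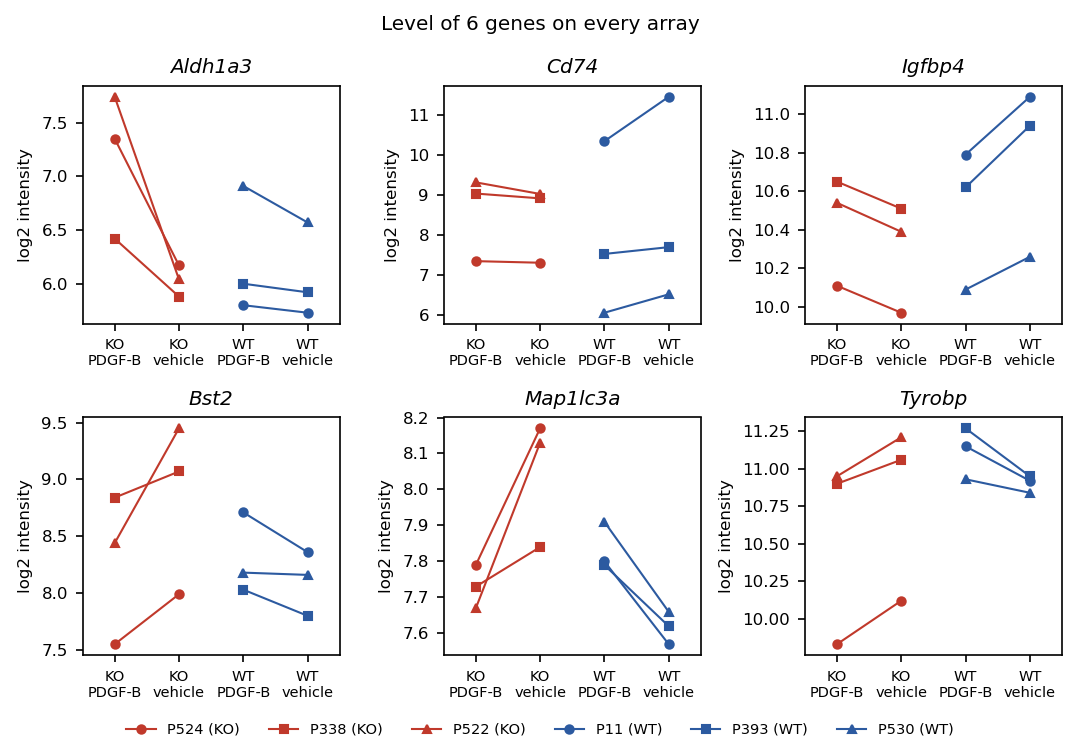
Level (log2 intensity) of 6 genes on every array, with the KO groups left of the WT groups and lines joining the arrays of a preparation. Preparations differ in level by more than most changes with ligand, as for Cd74, which ran from 6.05 to 11.45.

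Genes of myeloid cells lay on both sides. Cd74, the invariant chain of MHC class II, had 7.34, 9.03 and 9.31 log2 units in KO cells with PDGF-B, against 7.30, 8.91 and 9.02 with vehicle. In WT cells the levels were 10.34, 7.52 and 6.05 with PDGF-B, against 11.45, 7.69 and 6.51 with vehicle. P11 had the highest levels and the largest change, -1.11, and the difference of 0.73 ± 0.20 was 0.47 without it. H2-Aa, a class II alpha chain, differed by 0.68 ± 0.18, and by 0.41 without P11. Its level was 5.81 with PDGF-B and 6.05 with vehicle in P530, near background, and 6.32 and 6.49 in P393. It did not pass a filter for probes above background on all arrays. Clec4n, the lectin Dectin-2, differed by 0.54 ± 0.18 (0.31 without P530), and P2ry13, a purinergic receptor, by 0.41 ± 0.09.

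Tyrobp, the adaptor DAP12, had 9.83, 10.90 and 10.95 log2 units in KO cells with PDGF-B, against 10.12, 11.06 and 11.21 with vehicle. In WT cells it had 11.15, 11.27 and 10.93 with PDGF-B, against 10.92, 10.95 and 10.84 with vehicle. All KO preparations were lower with ligand and all WT preparations higher, a difference of -0.45 ± 0.10. Folr2, a folate receptor of resident macrophages, differed by -0.44 ± 0.10, with -0.46 at a second probe. Macrophage markers as a list had 12 of 21 positive and a median of 0.03, which was -0.01 under median scaling. Their mean log2 level was 9.25 to 10.05 on KO arrays with PDGF-B and 9.29 to 10.04 with vehicle, against 9.80 to 10.13 and 9.94 to 10.12 on WT arrays. Clec4f, which defines Kupffer cells in the mouse, was at a mean of 5.93, near background, and Timd4 was at 6.18. Vsig4 and Adgre1 of the same list were at 8.90 and 11.60, above background on all arrays. The part of macrophage content in these differences was not tested.

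The median difference of mesothelial markers came largely with 1 WT preparation, P530. Of 12 measured, 10 had a positive difference and the median was 0.20, and it was 0.0093 with 6 positive when P530 was left out. Their mean level in P530 was 7.93 log2 units with ligand, against 8.44 with vehicle, the largest step of any preparation. Over the groups the mean was 6.99 to 9.06 on KO arrays with PDGF-B and 7.01 to 9.13 with vehicle, against 7.93 to 8.40 and 8.39 to 8.44 on WT arrays. Gpm6a, a neuronal and mesothelial membrane glycoprotein, changed by 0.02, 0.07 and -0.00 in KO cells, against -0.02, -0.30 and -0.88 in WT cells, a difference of 0.43 ± 0.18, and of 0.19 without P530. Bnc1, basonuclin, differed by 0.26 ± 0.10 without overlap, with changes of -0.12, -0.24 and -0.23 in WT cells, so not through P530 alone. For Alox15, at -0.30, 0 of 3 KO arrays with PDGF-B were above background, so its difference is not measured on both sides. The part of mesothelial content in other differences was not tested.

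Stellate cell markers had 6 of 13 positive and a median of -0.07, which ranged from -0.14 to 0.06 over the leave-one-out fits. Reln, a secreted glycoprotein of quiescent stellate cells, differed by -0.29 ± 0.13 without overlap, and by -0.15 without P11. Its level was 8.23 with PDGF-B and 7.77 with vehicle in P11, and 5.77 to 6.47, near background, on the remaining arrays. Pparg, the adipogenic factor of quiescent cells, differed by -0.17 ± 0.11, and Lum, the proteoglycan lumican, by -0.39 ± 0.24, both with overlap.

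5 lists were added after the values were seen, because their members recurred among the lower or higher genes, and so they carry no test. Of 72 subunits of oxidative phosphorylation 10 had a positive difference (13.9%), the median was -0.18, and 17 lay below WT without overlap (23.6%, beside 4.62% of all genes) and 1 above. Their median change was -0.16, -0.03 and -0.07 in KO preparations, against -0.05, 0.15 and 0.14 in WT preparations, so P11 lay between the KO values. Ndufb6, a complex I subunit, changed by -0.23, -0.15 and -0.20 in KO cells, against -0.00, 0.31 and 0.30 in WT cells, a difference of -0.40. The median ranged from -0.24 to -0.13 over the leave-one-out fits and was -0.24 under median scaling.

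Mitochondrial ribosomal proteins had 18 of 73 positive and a median of -0.12, with 13 below WT without overlap (17.8%, beside 4.62% of all genes) and 1 above (1.37%, beside 4.66%). That median was -0.16 without P11 and -0.08 without P393. Cytosolic ribosomal proteins had 13 of 56 positive and a median of -0.12, with 10 below (17.9%, beside 4.62% of all genes) and 0 above. Rps15, of the small subunit, changed by -0.41, -0.13 and -0.22 in KO cells, against 0.04, 0.18 and 0.36 in WT cells. These genes have many near-identical copies, and a probe may read more than 1 of them. Atp5b and Atp5a1, subunits of ATP synthase, stood at the other end of the oxidative phosphorylation list with 0.17 each.

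MHC class II genes had 8 of 9 positive and a median of 0.26, which was 0.08 without P11. Their median change was 0.01, 0.05 and 0.12 in KO preparations, against -0.39, -0.11 and -0.11 in WT preparations. Of the LC3 and GABARAP genes, which conjugate to lipid on autophagosomes, 0 of 5 were positive, with a median of -0.14. It was -0.05 without P338 and -0.23 without P530, and 2 of 5 were positive without P11. Map1lc3b changed by -0.06, -0.16 and -0.10 in KO cells, against 0.29, 0.05 and 0.11 in WT cells, a difference of -0.26, and Gabarapl1 and Gabarapl2 differed by -0.01 and -0.03.

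**Figure D5:**
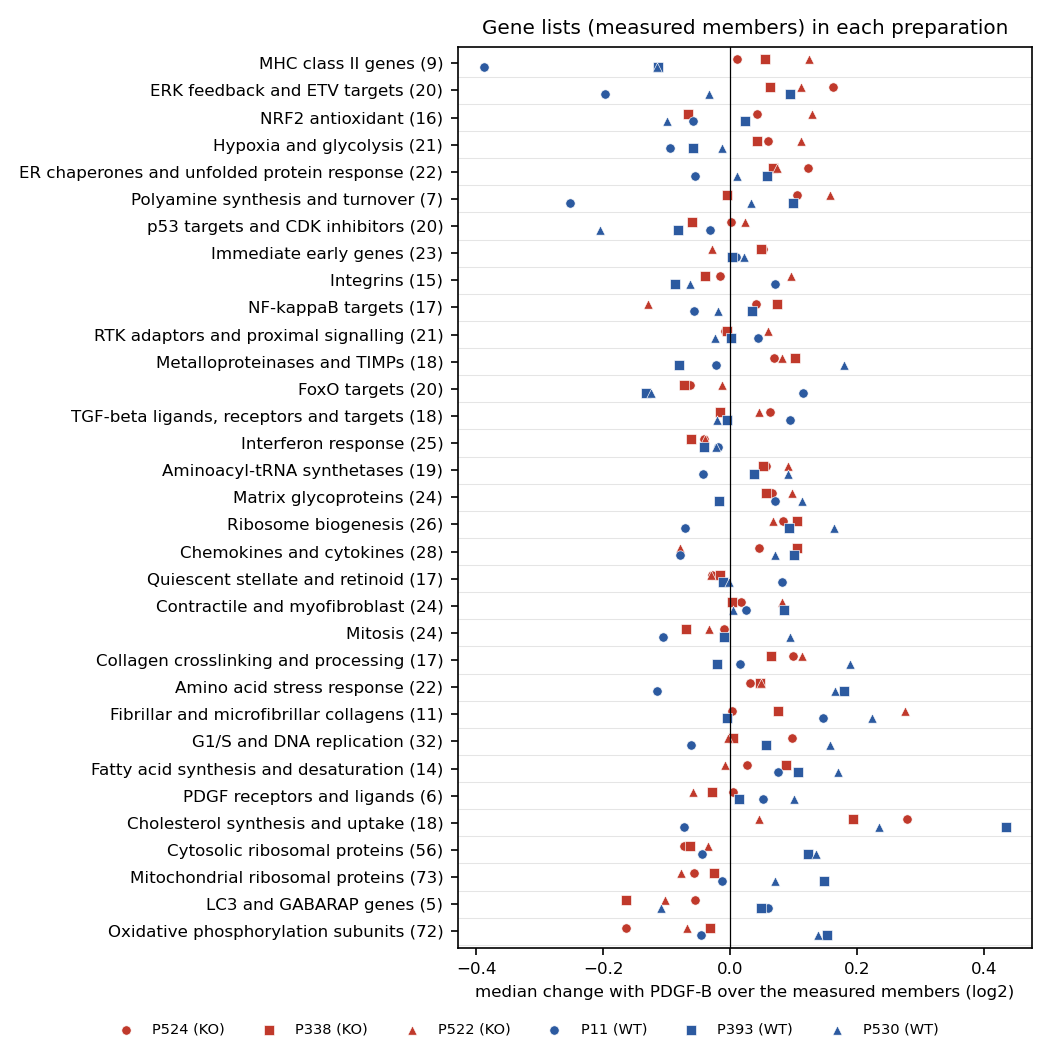
Median change with PDGF-B (horizontal axis, log2) over the measured members of each gene list, in 3 KO (red) and 3 WT (blue) preparations, with the number of members in brackets and lists ordered by median difference. Hypoxia and glycolysis and MHC class II lists have red symbols right of 0 and blue symbols left of it, and P11 is the leftmost symbol of the ERK list.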

How the data were processed

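The authors deposited a table of non-normalized probe intensity per array on a linear scale, which was used here, and their own normalized intensity values, used as an alternative. Their normalization and scanner software are not given in the sources used here. Each of the 12 value columns of a table was matched to a sample by its title code, and 0 value columns were left unmapped.

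In limma 3.58.1 under R 4.3.3, background was corrected by normexp (offset 50), arrays were brought to common quantiles, and values were put on the log2 scale. The tables held no detection p-value per probe, so background was estimated per array by mirroring the values under the mode, and probes above it at p under 0.05 on at least 3 arrays were kept (26233). Platform annotation gave 1 symbol for 34885 probes, several for 18 and none for 10378, and 34807 probes had a gene ID in the RefSeq table of GRCm38.p6, used for names. The brightest kept probe stood for a gene, and 5493 of 13303 genes had more than 1.

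The 6 changes were fitted with lmFit and eBayes (4 residual degrees of freedom, two-sided), which is the interaction term of a fit with the preparation as a block, and p-values were adjusted by Benjamini-Hochberg over all genes. Pairing comes from the title codes. Deviations from group means correlated at 0.93, 0.84 and 0.92 between the arrays of P524, P338 and P522, against 0.58, 0.67 and 0.78 for P11, P393 and P530, and each array matched its own code best. The fit was tested on simulated data. Array number limits the precision.

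Named genes are a panel, the 10 genes per direction with the smallest p and the 5 per direction with the largest difference among those without overlap, and up to 3 members of each list with the smallest p; any further gene was chosen after its values were seen. Provisional names were left out. Members, the 35 lists and the rule were chosen with earlier results of these data known, and 5 lists were added after the values were seen.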

Additional observations from a re-analysis of the deposited data

Results flagged for a closer look

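For 22 of the named genes, all 3 KO preparations changed in one direction with PDGF-B and all 3 WT preparations in the other, as they did for 182 genes higher and 199 lower in KO cells among all 13303. Their differences were tested with limma and 0 passed, each with an adjusted p of 0.999. Since most of these genes were named for changes that do not overlap, this split is in part a result of the choice. On the higher side in KO cells were Cd74 (0.73), H2-Aa (0.68), Cpe (0.45), Itm2a (0.45), Sema3f (0.42), Igfbp4 (0.41), Cul2 (0.41), Slc2a1 (0.41), Trf (0.38) and Smu1 (0.36). Of these, H2-Aa was near background in P530. Trf, transferrin, is made by hepatocytes and other cells. Of hepatocyte markers, Alb, Apoa1 and Apoc3 were not above background on any array, whereas Ambp (mean 7.82) and Ass1 (9.13) were above it on all. The part of hepatocyte content in the Trf difference was not tested. On the lower side in KO cells were Bst2 (-0.76), Map1lc3a (-0.54), Pcbd2 (-0.48), Tyrobp (-0.45), Bdh2 (-0.41), Zmat5 (-0.37), Tpm2 (-0.32), Gins2 (-0.31), Alox15 (-0.30), Twistnb (-0.25), Tnip1 (-0.23) and Tpx2 (-0.19). Of these, Alox15 and, on KO arrays, Twistnb were near background. Tnip1, which restrains NF-kappaB signalling, had 1 of 3 further probes of opposite sign.

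The same split held for the medians of 2 lists, MHC class II genes (0.26) and hypoxia and glycolysis genes (0.11), and these 2 differences between genotypes were not tested. The MHC class II list was added after the values were seen, so its split is in part a result of that choice. Some medians lay close to 0, at 0.01 in P524 for MHC class II genes and -0.01 in P530 for hypoxia and glycolysis genes.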

How the results depend on the processing

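With 17 alternative settings, 0 genes passed the adjusted threshold in each, and the smallest adjusted p was 0.146, without P11. The count of genes with non-overlapping changes was 1235 of 13303. It stayed within 1.5 times of that for every change of background correction, normalization, filter and probe rule. The extremes, 867 of 9400 genes and 1789 of 19057, came with filters that left other numbers of genes. Leaving out a preparation gave 2203 to 3476, more by construction, since 3 changes then face 2. At an unadjusted p under 0.05, the 270 higher and 330 lower genes became 47 and 285 under median scaling, 168 and 154 without P524, 193 and 201 without P522, and 719 and 659 without P11. The fit without the replicate block, which ignores the pairing, also called 0 genes, and 37 genes higher and 43 lower in KO cells passed without adjustment. Among 2231 values of named genes, 22 had the opposite sign, in 10 genes. Of 520 list medians, 43 moved by more than the spread between preparations and 59 changed sign, while 16 lists never did, among them the ERK feedback, ER chaperone, hypoxia, NRF2 and oxidative phosphorylation lists. The signs of the macrophage, matrix glycoprotein, TGF-beta, chemokine, ribosome biogenesis and quiescent stellate medians turned under median scaling, which itself shifts the median of all genes to -0.01. Relative to that shift, the TGF-beta (0.0065) and chemokine (0.0076) medians kept their sign. Dim genes, close to background, have differences compressed by the offset.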

Other observations

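Signals between cells made a further group. Of 28 chemokines and cytokines 15 had a positive difference, and the median was 0.0029. Csf1, the growth factor of macrophages, changed by 0.36, 0.31 and 0.58 in KO cells, against -0.15, 0.21 and 0.27 in WT cells, a difference of 0.31 ± 0.13 without overlap that was 0.18 without P11. Ccl3, a macrophage chemokine, changed by -0.10, -0.11 and -0.43 in KO cells, against -0.03, 0.29 and 0.12 in WT cells, a difference of -0.34 ± 0.12 without overlap. Il1b differed by 0.28 ± 0.11 with overlap. Among interferon response genes, Psmb9, an immunoproteasome subunit, differed by -0.32 ± 0.12 without overlap (-0.18 without P530) and Usp18, a deubiquitinase that limits interferon signalling, by 0.33 ± 0.14 with overlap.

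NF-kappaB targets had 10 of 17 positive and a median of 0.06, which was -0.04 without P530. Integrins had 11 of 15 positive and a median of 0.06, with 0 members whose changes did not overlap, and p53 targets had 12 of 20 positive with a median of 0.07. The median of integrins and of p53 targets kept its sign in the 13 settings tried for lists. Amino acid stress genes under ATF4 had 5 of 22 positive, with 0 without overlap, a median of -0.05 and leave-one-out values of -0.13 to 0.0052. Over all genes, 4.66% lay above WT without overlap and 4.62% below.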
